A study of Mus musculus with 6 samples.

Results

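Beside a table of counts for every gene, the authors of this study deposited a small matrix of expression values for 30 genes, and these 30 genes are described here. They were taken as all rows of that matrix, matched by Ensembl ID. All 30 of 30 were found among the 52856 rows of the count table, and all 30 passed the filter on low counts. The RNA came from splenic CD4+ T cells, and the C57BL/6 mice were 8 weeks old. The 3 WT libraries are from wild type mice and the 3 KO libraries from miPEP31-/- mice. Both groups had been activated in culture for 48 hours with antibodies to CD3 and CD28, so no resting cells are compared. Nothing in the labels says whether the libraries of a group come from separate animals, how the deletion was made or whether it reaches other tissues, and p-values then measure only the spread between these libraries. No source used here says how the 30 genes were selected, and if the selection used these libraries, their direction is not independent evidence.

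miPEP31 is a small peptide translated from the primary miR-31 transcript, which also yields the microRNA miR-31. A microRNA guides an Argonaute protein to messenger RNAs, mostly through pairing of its seed, the bases near its 5′ end, with a complementary stretch in the 3′ untranslated region (3′ UTR), and the bound messenger is commonly translated less and degraded sooner. In T cells, miR-31 is known for targets that bear on regulatory T cells, among them Gprc5a, a receptor gene induced by retinoic acid, which is one of the 30. The Mir31 row was 0 in each of the 6 libraries and gives neither a check of the genotype labels nor a level of the microRNA.

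The sequence feature that the 30 genes share is shown first. The mature microRNA, from RefSeq (GRCm38.p6, chr4:88910614-88910635, minus strand), is printed 5′ to 3′ with its seed, positions 2 to 8, in capitals.
mmu-miR-31-5p: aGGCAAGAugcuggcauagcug
A complete seed match in a messenger reads TCTTGCC, and CTTGCC pairs with positions 2 to 7 alone. The longest annotated 3′ UTR of each gene (GENCODE M21, GRCm38) was searched on the transcript strand. All 30 genes held CTTGCC, against 35.9% of the 12028 tested genes with an annotated 3′ UTR. The longer TCTTGCC was in 15 of 30 genes and in 13.0% of tested genes, and TCTTGCCA, with an A opposite position 1, in 5 of 30 and in 4.06%. The 3 motifs are nested, so a longer match is also counted as a shorter one. The 3′ UTRs of the 30 genes were longer, with a median of 2275 bases against 1173, but matches were also denser per length. CTTGCC occurred 0.819 times per kb in the 30 genes and 0.340 times per kb in the tested genes. Since all 30 hold CTTGCC, against 35.9% of tested genes, a higher density follows in part from that and is not a separate result. A match describes letters in an annotated sequence and shows no binding.

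The sites below are the matches of TCTTGCC or longer in the 5 genes with TCTTGCCA, in Myo6 and Mboat2, which fell the most, in Stat5b, and in the known target Gprc5a. Further CTTGCC or CTTGCCA matches in the 3′ UTRs of Dclk1, Rcor2, Kdm2a, Slc6a6, Myo6, Mboat2 and Stat5b are not printed. Each is written as the 22 bases opposite the microRNA, 5′ to 3′ on the transcript strand, with the motif in capitals. TCTTGCC pairs with the seed, while the last A of TCTTGCCA lies opposite the A at position 1 and does not pair. All lie in 3′ UTR exons.
Dclk1, chr3:55535975-55535996, plus strand: cagtaattcagtaaTCTTGCCA
Rcor2, chr19:7274728-7274749, plus strand: gaagggactagggcTCTTGCCA
Map3k1, chr13:111747107-111747128, minus strand: tttaaaggacgcacTCTTGCCA
Kdm2a, chr19:4316711-4316732, minus strand: actcttagctgcagTCTTGCCA
Slc6a6, chr6:91755404-91755425, plus strand: gccacttgaattggTCTTGCCA
Myo6, chr9:80308755-80308776, plus strand: gcttcggacagctcTCTTGCCc
Mboat2, site 1, chr12:24959504-24959525, plus strand: tttccaaatgaatgTCTTGCCt
Mboat2, site 2, chr12:24960340-24960361, plus strand: tcttagggggccacTCTTGCCt
Mboat2, site 3, chr12:24963306-24963327, plus strand: tgccagctaatttgTCTTGCCt
Stat5b, chr11:100780994-100781015, minus strand: ggtctccacccaccTCTTGCCt
Gprc5a, chr6:135083953-135083974, plus strand: ccagcacaccgccgTCTTGCCt

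No other word of 6 bases was shared in this way. Of all 4096 words, CTTGCC was the one found in all 30 genes, and the next reached 28. Another 796 words occurred in a share of tested genes within 10% of that of CTTGCC, and they were found in 5 to 22 of the 30 genes, with a median of 15. The corresponding match to the other arm, miR-31-3p (CATAGC, positions 2 to 7), was in 13 of 30 genes and in 24.5% of tested genes. With the 3′ UTR of the principal transcript in place of the longest one, CTTGCC was in 29 of 30 genes, all but Specc1. The search was added after the names of the 30 genes were seen, and whether the authors used such a match to choose them is not given.

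**Figure D1:**
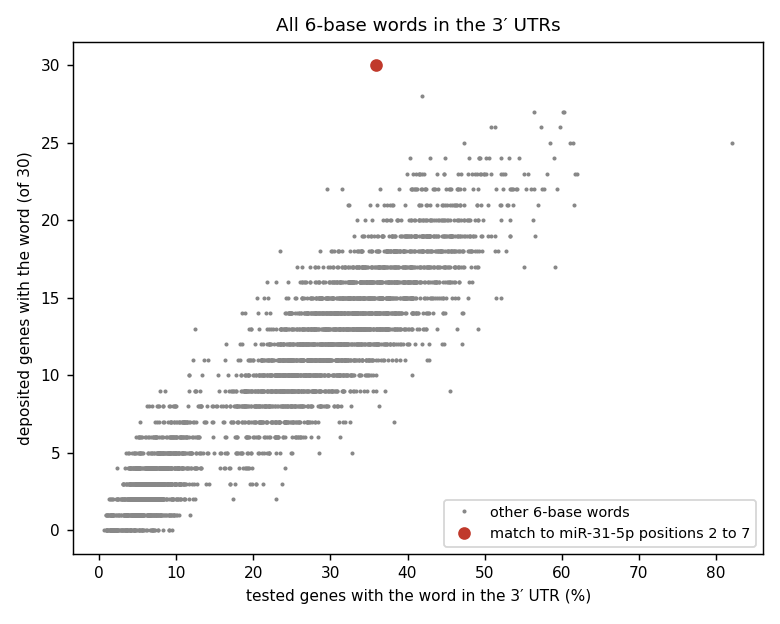
Each point is 1 of 4096 words of 6 bases. The x axis gives the percentage of tested genes with the word in the longest 3′ UTR and the y axis how many of the 30 deposited genes hold it. The match to positions 2 to 7 of miR-31-5p stands at 30 genes and 35.9%, above all other words.

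Of the 30 genes, 22 were lower in the KO in the count table, 0 were higher and 8 did not pass the test (edgeR quasi-likelihood test over all 14387 genes tested, Benjamini-Hochberg adjusted p under 0.05). That is 73.3% of the 30, where 22.2% of all genes tested were called lower and 25.1% higher. None was higher at an unadjusted p under 0.05 (0 of 30), 0 were called higher with DESeq2 or limma-voom, and Ahnak alone had a log2 fold change above 0. Adjusted p-values of the 22 called genes were at most 0.0287. The median log2 fold change (KO over WT) was -0.48 for the 30 genes and 0.01 for all genes tested. In CPM (counts relative to library size, scaled by TMM), all KO libraries lay below all WT libraries in 24 of the 30, or 80.0%, against 28.4% of all genes tested. The size of the falls varied: 6 genes were at least 2-fold lower and 11 of the 22 were under 1.5-fold lower. The 6 are 20.0% of the 30, against 7.07% of all genes tested. Among called genes alone, they are 27.3% of the 22, against 31.8% of the 3197 genes called lower in all. In whole-culture RNA, fewer cells of a type and less RNA per cell cannot be told apart.

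The direction of the 30 genes was not that of all genes with the same match. Of the 4318 tested genes with CTTGCC, 24.0% were lower in the KO and 27.8% higher (median log2 fold change 0.03). Of the 7710 tested genes with a 3′ UTR and no CTTGCC, 21.0% were lower and 27.7% higher, with a median of 0.05. The share called lower was 24.1% of the 1561 tested genes with TCTTGCC, 24.6% of the 1595 with CTTGCCA and 26.2% of the 488 with TCTTGCCA, and the share called higher was 28.5%, 28.6% and 28.5%. The 22 called members are 2.13% of the 1035 genes with CTTGCC that were called lower, and the 6 with falls of at least 2-fold are 2.21% of 271. Within the 30, the median log2 fold change was -0.93 for the 5 genes with TCTTGCCA, -0.53 for the 10 whose best match was TCTTGCC, -0.37 for the 5 whose best was CTTGCCA and -0.38 for the 10 with CTTGCC alone. Their ranges overlapped, at -1.44 to -0.35, -2.78 to 0.09, -0.85 to -0.10 and -1.05 to -0.12, and this order was not tested.

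**Figure D2:**
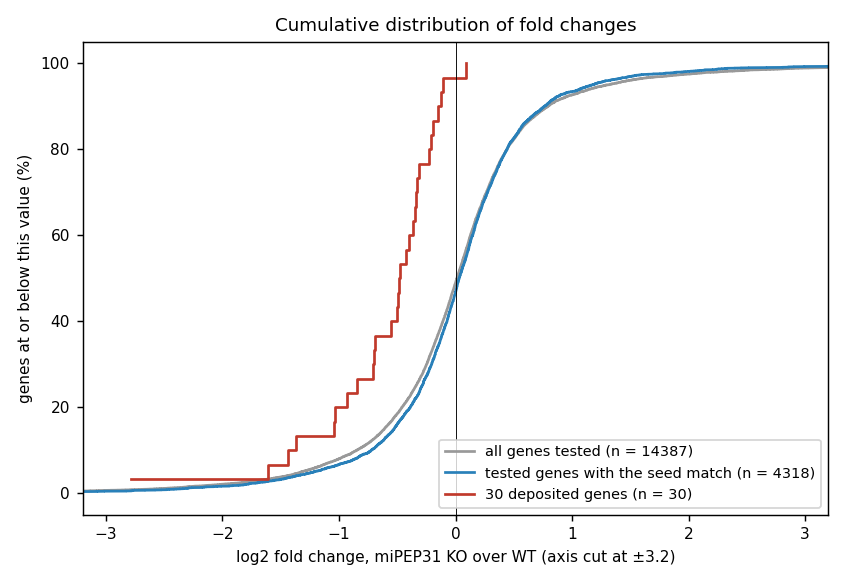
Cumulative share of genes (y axis, %) by log2 fold change of KO over WT (x axis, cut at 3.2 on either side) for all 14387 genes tested, the 4318 with the match CTTGCC in the longest 3′ UTR, and the 30 deposited genes. The first 2 curves nearly coincide, with medians of 0.01 and 0.03, and that of the 30 genes lies to the left, with a median of -0.48.

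Signalling genes were 6 of the 30, of which 4 were lower and 2 did not pass. Stat5b (chr11:100780731-100850724) encodes a transcription factor that carries the interleukin-2 signal. It stood at 500, 469 and 465 CPM in WT replicates 1 to 3 and at 340, 327 and 312 CPM in KO replicates 1 to 3. The groups were far apart for their spread, and Stat5b fell by 0.55 on the log2 scale (SE 0.06, edgeR adjusted p = 2.54e-04). Its close paralog Stat5a, which is not among the 30, went from 490 ± 20.8 CPM to 493 ± 60.2 CPM (mean ± SD, n = 3 per group) with an edgeR adjusted p of 0.937. Both share sequence, and Stat5b counts were fractional in all 6 libraries, so how the authors' counting split reads between them can move both levels. With Stat5b, 9 of the 30 genes had fractional counts. Npm1, Syne3, Colgalt1 and D230025D16Rik had them in all 6 libraries, Pgm1 in 5, Ppp2r2a and Cct8 in 3, and Ccni in 1. How reads of these genes were split is not given. In the fixed list of Janus kinase, STAT and SOCS genes, the only 1 of 20 lists that holds a member, 10 of 21 tested were higher and 4 lower, and 7 missed the threshold (median log2 fold change 0.13). Of these, Stat2 rose by 1.87 (SE 0.07) and Tyk2 by 0.59 (SE 0.06).

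Map3k1 (chr13:111746428-111808993), a kinase at the top of MAP kinase cascades, had 177, 180 and 164 CPM in WT and 70.1, 93.2 and 109 CPM in KO. No KO library reached the WT range, and Map3k1 fell by 0.93 (SE 0.14, edgeR adjusted p = 0.00131). Dclk1 (chr3:55242364-55539068) encodes a doublecortin-like kinase that binds microtubules. It had 32.3, 13.9 and 15.0 CPM in WT and 11.3, 8.14 and 4.34 CPM in KO. WT replicate 1 stood at more than the level of the other WT libraries combined, and the smallest WT value was only a little above the largest KO value. Dclk1 fell by 1.36 (SE 0.41, edgeR adjusted p = 0.0246). Without WT replicate 1 the fall was 0.87 and the call was lost (edgeR adjusted p = 0.0951), as it was without each KO library in turn (0.0611, 0.0800 and 0.124 without KO replicates 1, 2 and 3) and without the filter on low counts (0.173). Hipk1, a nuclear kinase of stress responses, ranged from 181 to 190 CPM in WT and 157 to 164 in KO. It fell by 0.21 (SE 0.06, edgeR adjusted p = 0.0153), and the call was lost without WT replicate 2 or 3 (0.0690 and 0.0576) and with a replicate block (0.0574).

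The 2 signalling genes that did not pass were Gprc5a and Ppp2r2a. Gprc5a (chr6:135065651-135084709) was scarce, at 3.77, 3.46 and 3.17 CPM in WT and 1.85, 2.38 and 3.27 CPM in KO. KO replicate 3 lay within the WT range and the other KO libraries below it (log2 fold change -0.47, SE 0.24, edgeR adjusted p = 0.134). Leaving out KO replicate 3 gave a log2 fold change of -0.72, which passed (edgeR adjusted p = 0.0276). Ppp2r2a, a regulatory subunit of protein phosphatase 2A, had 131, 136 and 142 CPM in WT and 127, 127 and 113 CPM in KO. Its groups did not overlap, yet the difference was small (log2 fold change -0.15, SE 0.07, edgeR adjusted p = 0.0981), and it passed with upper-quartile scaling alone (0.0394).

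Chromatin and nuclear genes were 6 of the 30, and all 6 were lower in the KO. Their median log2 fold change was -0.59. Rcor2 (chr19:7267325-7275225), a corepressor of the CoREST family, had 24.1, 22.9 and 23.6 CPM in WT and 6.46, 9.22 and 10.3 CPM in KO. Its WT libraries were nearly equal and more than double any KO library, and it fell by 1.44 (SE 0.16, edgeR adjusted p = 2.56e-04). Setd5 (chr6:113077365-113153435), a SET-domain chromatin regulator, had 368, 343 and 333 CPM in WT and 206, 223 and 218 CPM in KO, and fell by 0.69 (SE 0.06). Neither gene had overlap between groups, and in Setd5 the KO libraries lay close together.

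Another 3 nuclear genes fell less. Npm1, the gene of nucleophosmin, which serves ribosome assembly in the nucleolus, ranged from 2975 to 3056 CPM in WT and from 1916 to 2475 in KO and fell by 0.49 (SE 0.09). It was the most abundant of the 30 also per length, at 1133 CPM per kb of annotated exon in WT, and its counts were fractional in all 6 libraries. Reads of its pseudogenes cannot be told apart here. Atrx, a chromatin remodeller, ranged from 329 to 344 CPM in WT and 224 to 276 in KO and fell by 0.42 (SE 0.08). Kdm2a, a histone H3 demethylase, ranged from 155 to 161 and from 114 to 124 CPM and fell by 0.40 (SE 0.06).

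Genes of the cytoskeleton and of protein folding held both the largest fall and the 1 gene on the other side of 0. Of 5, 2 were lower and 3 did not pass. Myo6 (chr9:80165031-80311729) encodes myosin VI, the motor that moves towards the minus end of actin filaments. It had 40.6, 77.4 and 70.6 CPM in WT and 7.11, 9.0 and 11.3 CPM in KO. WT replicate 1 stood below the other WT libraries, but still above every KO library by a wide margin. Myo6 was 6.88-fold lower in the KO, a fall of 2.78 on the log2 scale (SE 0.26, edgeR adjusted p = 1.33e-04). Syne3, the gene of nesprin-3 in the nuclear envelope, ranged from 105 to 108 CPM in WT and from 70.2 to 79.8 in KO and fell by 0.50 (SE 0.06).

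Ahnak (chr19:8989284-9076914), the gene of a giant scaffold protein, had 218, 191 and 164 CPM in WT and 189, 195 and 227 CPM in KO. Its groups overlapped and its log2 fold change was 0.09 (SE 0.11, edgeR adjusted p = 0.534), and -0.01 without WT replicate 3. Specc1 (chr11:61956763-62223013), a coiled-coil gene, was the scarcest per length, at 0.288 CPM per kb in WT. It had 3.72, 4.68 and 4.44 CPM in WT and 3.66, 3.53 and 4.77 CPM in KO, again with overlap (log2 fold change -0.10, SE 0.19, edgeR adjusted p = 0.673). Cct8, a subunit of the TRiC chaperonin that folds actin and tubulin, had 480, 511 and 520 CPM in WT and 495, 425 and 404 CPM in KO. KO replicate 1 lay within the WT range (log2 fold change -0.19, SE 0.08, edgeR adjusted p = 0.0941). Without that library the log2 fold change was -0.28 and passed (edgeR adjusted p = 0.00421), as it did with upper-quartile scaling (0.0387).

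**Figure D3:**
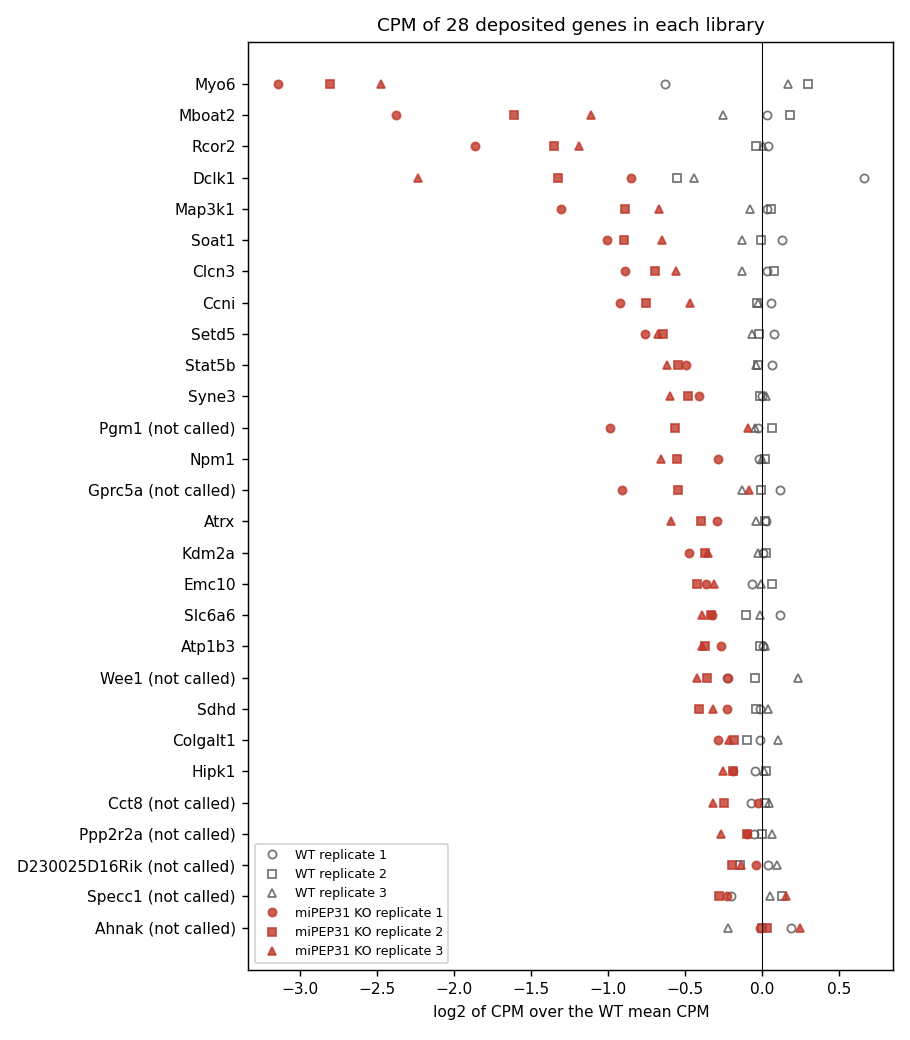
The log2 of each library's CPM over the mean WT CPM (x axis) for 28 of the 30 genes (y axis, ordered by fold change), with 3 WT libraries as open grey symbols and 3 KO libraries as filled red symbols. KO libraries lie left of the WT libraries in 22 of these genes, from Myo6 at the top, and mix with them in genes such as Ahnak and Specc1.

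Of 6 genes of lipid, sugar and mitochondrial metabolism and protein modification, 5 were lower and 1 did not pass. Mboat2 (chr12:24830879-24964397), an acyltransferase that remodels phospholipids, had 23.6, 26.2 and 19.4 CPM in WT and 4.44, 7.55 and 10.7 CPM in KO and fell by 1.61 (SE 0.27, edgeR adjusted p = 0.00201). Soat1 (chr1:156424525-156474331), which esterifies cholesterol for storage, had 102, 92.8 and 85.0 CPM in WT and 46.3, 50.1 and 59.3 CPM in KO and fell by 0.85 (SE 0.11, edgeR adjusted p = 4.89e-04). In both, KO replicate 1 was the lowest and KO replicate 3 the highest KO library, and no KO library reached the WT range.

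Pgm1 (chr4:99929414-99987294), which interconverts glucose phosphates at the branch to glycogen, had 266, 283 and 263 CPM in WT and 137, 183 and 255 CPM in KO. The groups did not overlap, but KO replicate 3 was close to WT and the test was not passed (log2 fold change -0.50, SE 0.19, edgeR adjusted p = 0.0615). It passed without that library, at -0.77 (0.00118), with DESeq2 (0.0148) and with a replicate block (0.0456). In the fixed list of glycolysis and hypoxia genes, which does not hold Pgm1, 21 of 30 tested were lower and 0 higher, also 0 higher at an unadjusted p under 0.05 (edgeR; median log2 fold change -0.54). The 3 with the smallest p were Eno3, Pfkfb3 and Pfkm, which fell by 1.72 (SE 0.13), 0.81 (SE 0.06) and 1.21 (SE 0.13).

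Sdhd, a membrane anchor of succinate dehydrogenase, ranged from 109 to 115 CPM in WT and from 84.3 to 95.5 in KO and fell by 0.31 (SE 0.07). Colgalt1, a collagen galactosyltransferase, ranged from 75.2 to 86.3 and from 66.0 to 71.0 CPM and fell by 0.23 (SE 0.07, edgeR adjusted p = 0.0287). That call did not hold when WT replicate 1, WT replicate 3 or KO replicate 2 was left out (0.0712, 0.102 and 0.0542), with a replicate block (0.0673) and with plain library sizes (0.0652). Exons of Colgalt1 overlap those of Unc13a on the other strand by 495 bases. Unc13a fell from 68.2 to 18.7 CPM. The use of strand in the counting is not stated. Reads in these 495 of the 4326 annotated exon bases of Colgalt1 therefore cannot be told apart. The same holds for the bases shared by Pgm1 and Itgb3bp (398 bases), D230025D16Rik and B3gnt9 (416 bases) and Cct8 and Usp16 (192 bases). Itgb3bp and B3gnt9 were at 5.21 and 4.53 CPM in WT, and Usp16 at 52.8.

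All 4 genes of ion transport and membrane insertion were lower. Clcn3 (chr8:60910389-60983300), a chloride-proton exchanger of endosomes, had 211, 217 and 188 CPM in WT and 111, 127 and 140 CPM in KO and fell by 0.71 (SE 0.10, edgeR adjusted p = 6.90e-04). The other 3 moved less and with little spread in the KO. Slc6a6, the taurine transporter, ranged from 172 to 201 CPM in WT and from 141 to 148 in KO and fell by 0.35 (SE 0.07). Atp1b3, a beta subunit of the sodium pump, ranged from 238 to 243 and from 183 to 200 CPM and fell by 0.34 (SE 0.06). Emc10, a subunit of the complex that inserts proteins into the endoplasmic reticulum membrane, ranged from 71.3 to 78.2 and from 55.6 to 60.1 CPM and fell by 0.37 (SE 0.06).

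Of the 2 cell cycle genes, 1 was lower. Ccni (chr5:93181933-93206495), the gene of the atypical cyclin I, had 292, 275 and 276 CPM in WT and 148, 167 and 203 CPM in KO and fell by 0.70 (SE 0.11, edgeR adjusted p = 0.00130). Wee1 (chr7:110122046-110143286), the kinase that holds back entry into mitosis, had 20.0, 22.7 and 27.5 CPM in WT and 20.1, 18.3 and 17.5 CPM in KO. WT replicate 1 and KO replicate 1 were nearly equal, and Wee1 did not pass (log2 fold change -0.33, SE 0.13, edgeR adjusted p = 0.0617). It passed without WT replicate 1 (0.0320), without KO replicate 1 (0.0383), with DESeq2 (0.0430), with upper-quartile scaling (0.0396) and without the filter on low counts (0.0322). In the fixed cell cycle list, which holds neither gene, 17 of 31 tested were lower and 5 higher, and 9 missed the threshold (median log2 fold change -0.23). The 3 with the smallest p were Ttk, Aurkb and Cenpa, which fell by 1.10 (SE 0.06), 0.60 (SE 0.06) and 0.70 (SE 0.07). The last of the 30, the uncharacterised gene D230025D16Rik (chr8:105225145-105253053), had 26.6, 23.5 and 27.7 CPM in WT and 25.2, 22.6 and 23.6 CPM in KO and did not pass (log2 fold change -0.12, SE 0.09, edgeR adjusted p = 0.292).

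In the deposited matrix itself, values are log10 expression centred on 0 for each gene. There, 29 of 30 genes had a lower mean in KO, and in 22 of 30 all KO libraries lay below all WT libraries. With 3 against 3 libraries an exact two-sided permutation test cannot go below 0.1, and it gave 0.1 for these 22 genes. Myo6 had 0.388, 0.719 and 0.694 in WT and -0.702, -0.560 and -0.538 in KO, the largest difference of the matrix at -1.201. Stat5b had 0.089, 0.068 and 0.060 in WT and -0.063, -0.059 and -0.096 in KO, a difference of -0.145. Ahnak, with a difference of 0.004, was again the 1 gene not below 0.

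The 2 tables gave the same direction for all 30 genes but not the same size for all. Over 180 values, the matrix rose by 0.293 for each log2 unit of centred CPM, where log10 of 2 is 0.301, with Pearson r = 0.933 across genes and libraries. Both tables come from the same libraries and are not independent. For 21 genes the group differences lay within 0.05 (log10) of each other, and for 9 they did not. The matrix gave a larger difference for Myo6 (-1.201 against -0.829 in log10 CPM) and for Specc1 (-0.189 against -0.033). It gave a smaller one for the rest, among them Mboat2 (-0.309 against -0.509), Soat1 (-0.111 against -0.256), Dclk1 (-0.293 against -0.410), Rcor2 (-0.370 against -0.442), Gprc5a (-0.091 against -0.153) and Map3k1 (-0.228 against -0.287). The tables differed on whether the groups overlap for 4 genes. Ppp2r2a, Hipk1 and Colgalt1 overlapped in the matrix and not in CPM. Specc1 did the reverse: matrix values were 0.102, 0.083 and 0.099 in WT and -0.166, -0.117 and 0.000 in KO, with no overlap, while the CPM overlapped. Which quantity was logged for the matrix is not stated, and what makes these 9 genes differ was not tested.

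**Figure D4:**
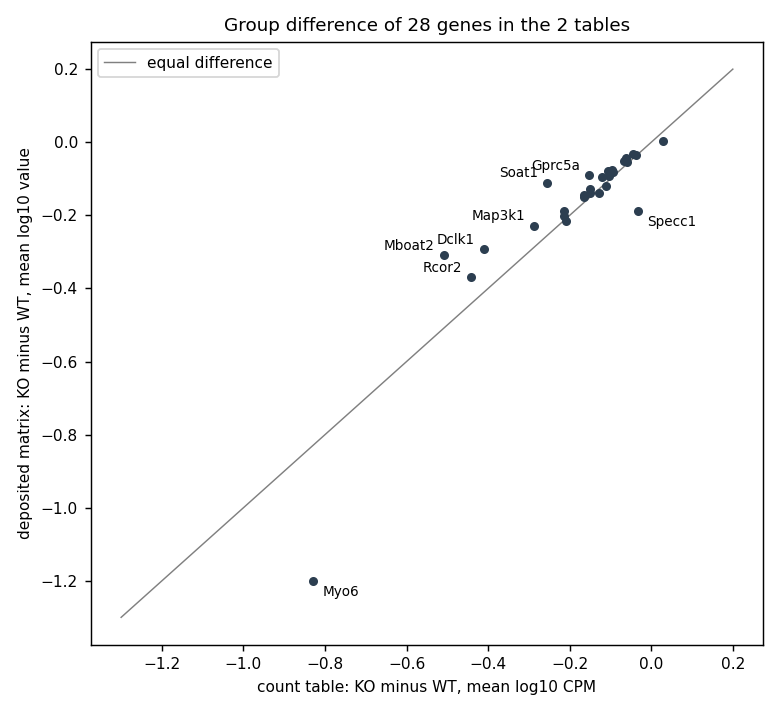
Difference of group means, KO minus WT, for 28 of the 30 genes in log10 CPM of the count table (x axis) and in the deposited log10 matrix (y axis). The grey line marks equal differences, the 8 labelled genes lie 0.05 or more away from it, and Myo6 is the lowest point at -0.829 and -1.201.

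The KO libraries differed among themselves, and the 30 genes split by which one was lowest. In the first 15 rows of the matrix, from Gprc5a to Map3k1, the lowest KO value was that of replicate 1 in 11 genes. In the last 15, from Npm1 to Atp1b3, it was that of replicate 3 in 11 genes. The cut was made at the middle of the file order, and what set that order is not stated. If the order came from these values, the split is not independent of them. Ccni stood at -0.165, -0.102 and -0.034 in KO replicates 1, 2 and 3, while Npm1 stood at -0.014, -0.070 and -0.126. In CPM, replicate 1 was the lowest KO library for 12 of the 22 called members (54.5%), and for 54.4% of all genes called lower. Replicate 3 was the lowest for 8 of the 22 (36.4%) and for 26.9% of all genes called lower, and replicate 2 for 2 (9.09%) and 18.8%. The median of the fixed type I interferon list, relative to the WT mean, was 4.15, 3.75 and 3.18 (log2) in KO replicates 1, 2 and 3, and its part in these differences was not tested.

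**Figure D5:**
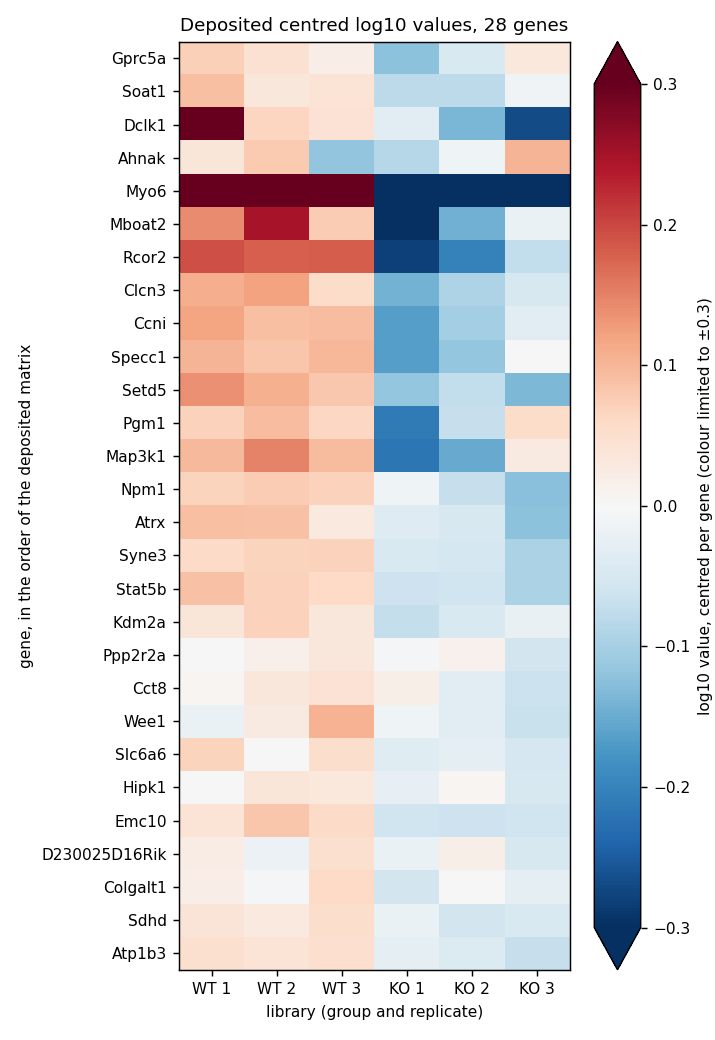
Deposited log10 values, centred per gene, for 28 of the 30 genes (y axis, in file order) in 3 WT and 3 KO libraries (x axis). Red is above and blue below the gene's mean, with colours limited to 0.3 on either side. The KO columns are mostly blue, most often deepest in KO 1 in the upper 13 rows drawn and in KO 3 in the lower 15.

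Libraries held 22865487 to 26295776 counts. Markers of CD4 T cells summed to 1700 to 1835 CPM in WT and 1646 to 1706 in KO, with 6 of 8 lower and 1 higher. Summed markers of macrophages and monocytes were 60.5 to 69.9 CPM in WT and 141 to 168 in KO, with 4 of 5 tested higher and Adgre1, Fcgr1, Vsig4 and Marco at 0 in every library. Dendritic cell markers were 72.5 to 80.9 and 358 to 482 CPM, with 4 of 6 tested higher and Clec9a and Cd209a at 0. That list holds Bst2, which is also in the interferon list. B cell markers were 193 to 276 and 222 to 488 CPM, with 3 of 11 higher and 1 lower, NK cell markers 82.7 to 126 and 108 to 232 CPM, with 1 of 6 tested higher, and CD8 T cell markers 26.3 to 32.2 and 49.6 to 58.5 CPM, with 3 of 4 tested higher. Neutrophil markers were at most 4.04 CPM, with 2 of 2 tested lower, erythroid markers at most 2.73 CPM, and stromal markers 49.4 to 60.8 in WT and 22.6 to 40.0 in KO, with 1 of 4 tested higher and 1 lower. The part of any such cells in the falls of the 30 genes was not tested.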

How the data were processed

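RNA-seq of 3 WT and 3 miPEP31 KO libraries was used. The authors deposited estimated counts per gene (52856 rows, 944 without an Ensembl ID, 72.2% of values above 0 whole), and log10 values for 30 genes, centred per gene; that scale was read from the values. Per the submitters' processing notes, Bowtie 0.12.2 and the build mm8 were used, with no step named; no source used here gives the counting program, its annotation or its use of strand. Counts were rounded, filtered with filterByExpr of edgeR 4.0.16 (minimum count 10, 14387 rows kept), scaled with TMM and compared with the edgeR quasi-likelihood test (robust, no covariate, adjusted p under 0.05). SEs were derived by dividing the log2 fold change (no shrinkage) by the root of the F statistic. The matrix was described with exact permutation tests. Since its values are centred, neither a pseudocount nor a low-value filter applied. limma 3.58.1 and DESeq2 1.42.0 (R 4.3.3) were alternatives.

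Symbols, coordinates and 3′ UTRs come from GENCODE M21 (GRCm38) by gene ID, the microRNA from RefSeq. Per-library values are given for the 12 called members with the largest fold changes and for those not called, and up to 3 other genes for each list used. Of these, 2 members and 1 list gene are not reported here singly, and remain in the counts. The members and lists were chosen with earlier results of these data known, and functions were assigned by hand. The scripts were tested on simulated data, with 50 changed genes at each fold change. False calls were 4.46% of 157 calls with edgeR, 3.21% of 156 with limma-voom and 18.2% of 192 with DESeq2. The simulation changed far fewer of the 14387 genes than the 3197 lower and 3609 higher genes called in the data. Its false shares therefore need not hold for the data. The DESeq2 calls of Pgm1 and Wee1, and its higher count of members called lower, rest on the tool with the largest simulated share. Of simulated 1.5-fold changes, edgeR recovered 42%, and of 2-fold changes 74%, shares that likewise need not hold for the data. A gene that did not pass may still have changed.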

Additional observations from a re-analysis of the deposited data

How the results depend on the processing

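Of the 30 genes, between 20 and 25 were called lower and 0 higher under every scaling, filter, tool, block and left-out library that was run: 24 with DESeq2, 22 with limma-voom, 25 with upper-quartile scaling and 20 to 23 with 1 library left out. With a replicate block 21 were lower. WT and KO libraries of the same number did not deviate together over all genes (correlations 0.00103, -0.00718 and -0.0156 over 14387 genes). A pairing that touches few genes would not show in such correlations, and the labels give only a replicate number. Of the members' recomputed fold changes, 393 kept direction and call, 13 lost and 12 gained the call, and the 2 that turned were those of Ahnak, whose log2 fold change ran from -0.01 to 0.19 with 1 library left out, and was 0.00 below 0 without KO replicate 3. In the matrix, all KO libraries lay below all WT libraries in 22 genes, and in 23 to 26 with 1 library left out. Leaving out a library can only keep or raise that count, so the range is no check of it. In CPM, with all libraries, the count was 24. Plain library sizes and the principal transcript were chosen after seeing the data; the latter gave TCTTGCC in 15 genes. The precision of the scarce genes Gprc5a and Specc1 is limited by under 5 CPM per library.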
